A study of Saccharomyces cerevisiae with 18 samples.

Results

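The 40 genes described here encode enzymes by which baker's yeast, Saccharomyces cerevisiae, makes lysine, histidine, the aromatic amino acids, threonine, serine, glycine, asparagine and proline, with the genes of their transcription factors LYS14, for lysine, and GCN4, for most of these pathways. They were chosen by name from the pathways, by a rule that uses no measured value but was set with earlier results of these data known: 8 for lysine, 6 for histidine, 10 for the aromatic amino acids, 5 for threonine and its precursor homoserine, 5 for serine and glycine, 2 for asparagine, 3 for proline and GCN4 itself. All 40 were found on the array, each with 1 probe set, out of 5763 yeast probe sets that named 5449 genes. No name of these 40 probe sets carries the suffix that marks probes for several transcripts. Exponentially growing cultures were exposed for 20 min to 1 of 6 dried commercial extracts of the herb Equisetum arvense (field horsetail), freed of excipient, at 2.5 mg/mL, or to none, a control that the labels call untreated and the study also calls vehicle only. Affymetrix Yeast Genome 2.0 arrays, 18 in all with 1 per culture, comprised 4 for control, 4 for the China #8 extract and 2 for every other extract, namely USA #2, USA #6, USA #7, Europe #11 and India #13. Values are given in array order. All cultures, controls included, were of the diploid strain BY4743, which lacks intact copies of HIS3, LEU2 and URA3 and carries 1 deleted copy each of LYS2 and MET15. They grew in a minimal medium from an earlier publication, to which uracil was added. The study does not list the amino acids that this medium supplied. Control and China #8 arrays came from both dates named in the sample titles, 2 of each from the first (batch 1) and 2 of each from the second (batch 2), to which all other arrays belong.

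In Saccharomyces cerevisiae, a shortage of an amino acid leaves transfer RNAs uncharged, and these activate the kinase Gcn2, which phosphorylates the initiation factor eIF2. This lowers translation in general but raises translation of the GCN4 messenger RNA through short open reading frames in its leader, and Gcn4 protein then activates genes of many amino acid pathways at once, a response known as general amino acid control. Several pathways add a control of their own, such as Lys14, which activates lysine genes together with a pathway intermediate, Bas1 and Pho2, which act on histidine genes, and Aro80, which acts on genes for the breakdown of aromatic amino acids. The arrays measured messenger RNA only, and neither Gcn4 protein nor amino acids were analysed here.

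Values are log2 signals, and changes are differences of mean log2 signal, extract minus control, with the standard error (SE) of a linear model fitted to all probe sets with limma. A gene was called higher or lower at a p of less than 0.05 after Benjamini-Hochberg adjustment over all 5763 probe sets, unless the Bonferroni correction is named. The 6 comparisons share the 4 control arrays, so they are not independent of each other, and 5 of them rest on 2 treated arrays. The methods call the cultures biological replicates. As checks of the strain, LEU2 and URA3, which are deleted, had median log2 signals of 3.56 and 3.23, with 2.45% and 1.06% of probe sets below them, while HIS3, of which the deletion removes only a part, stood at 11.55 and MET15, with 1 intact copy, at 12.77. Of 9 genes that diploid cells repress, STE18 was lowest at 3.99 (3.49% of probe sets below it), STE4 stood at 8.15 (21.5%) and RME1 was highest at 9.59 (50.0%). One control probe set, for the 3′ end of the 18S ribosomal RNA, read 11.77 to 12.26 on 4 arrays, control 3 and 4 and China #8 3 and 4, which are those of batch 2 in these groups, and 10.51 to 11.53 on the other 14. These 4 are called the high-18S arrays, and results are also given without them where this ends a call. Calls gained without them are given only within the counts. Without these arrays 2 controls remain, both of batch 1, while all extracts but China #8 were measured only in batch 2. In this setting the 18S signal, the date and the smaller number of controls cannot be told apart.

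With every extract, more of the 40 genes rose than fell. China #8 raised 24 of them and lowered 1, where 19.7% of all probe sets were called higher and 19.9% lower. USA #7 raised 19 and lowered 3 (all probe sets, 20.4% and 18.9%), USA #2 raised 17 and lowered 1 (10.5% and 8.36%), and India #13 raised 16 and lowered 0 (14.1% and 14.4%). Europe #11 raised 9 and lowered 1 (12.3% and 9.89%), and USA #6 raised 6 and lowered 2 (4.08% and 2.88%). As shares of the 40 genes, those called higher were 60%, 47.5%, 42.5%, 40%, 22.5% and 15% in the same order. In all, 31 of the 40 genes were called higher with 1 or more extracts and 3 were called lower (SER3, SER33 and SHM2, of which SER33 was also higher with India #13), while 7 were called with no extract (ARO7, TRP5, HOM6, SER2, ASN2, PRO3 and GCN4). Of these 7, HOM6, SER2 and PRO3 gained a call with batch as a block or within batch 2, as given with each pathway. Within batch 2 alone, the counts of higher and lower genes were 17 and 1 (China #8), 18 and 2 (USA #7), 16 and 2 (USA #2), 15 and 2 (India #13), 11 and 1 (Europe #11) and 9 and 0 (USA #6). With batch as a block in the model they were 24 and 1, 19 and 3, 17 and 2, 20 and 2, 13 and 1 and 9 and 2 in that order. Without the high-18S arrays, USA #6 had 11 higher and 2 lower, while each other count stayed within 1.5 times. Single arrays bore on the counts: with 1 array left out, the lowest totals were 22 (without China #8 array 3), 13 (without USA #7 array 1), 5 (without USA #2 array 2), 6 (without India #13 array 2), 2 (without Europe #11 array 2) and 0 (without USA #6 array 1). Leaving out the other array of the pair gave 7 with USA #2, 8 with India #13, 3 with Europe #11 and 1 with USA #6, and USA #6 gave 5 without control array 2. The shares of all probe sets above belong to the main fit. They were not counted in the batch, high-18S or left-out settings, so the counts there are not read against a share.

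**Figure D1:**
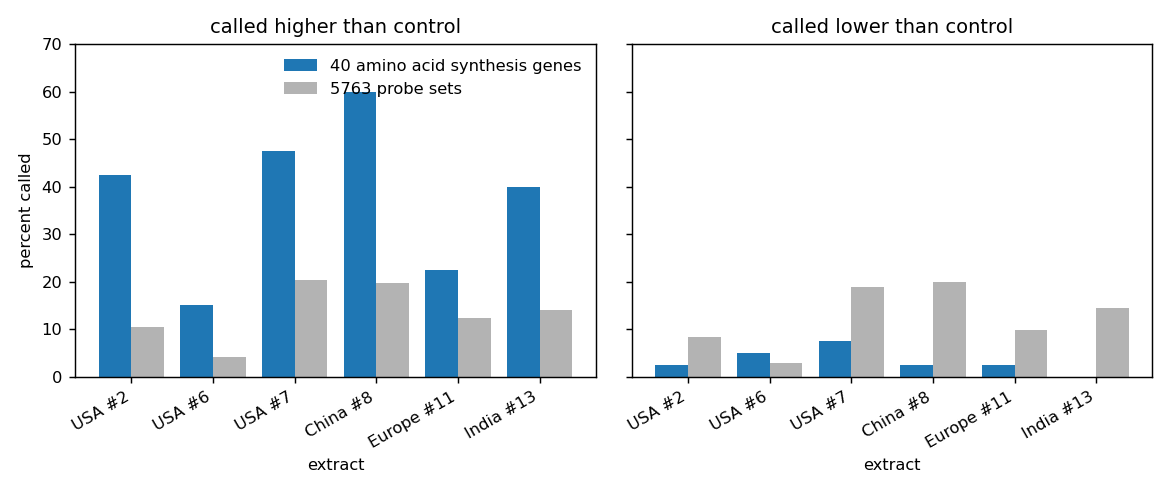
Percent of the 40 amino acid synthesis genes (blue) and of all 5763 probe sets (grey) called higher (left) or lower (right) than control with each extract. The share called higher was larger among the 40 genes than among all probe sets for each extract, from 15% against 4.08% with USA #6 to 60% against 19.7% with China #8.

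The median change of the 40 genes was 0.25 with USA #2, 0.19 with USA #6, 0.26 with USA #7, 0.25 with China #8, 0.19 with Europe #11 and 0.23 with India #13, where the median of all probe sets lay between 0.00 and 0.03. On single arrays, the median difference of the 40 genes from the control mean was -0.04 to 0.05 on the 4 control arrays and 0.18 to 0.30 on the 14 extract arrays. The control mean was taken from these same 4 control arrays, which centres their values on 0. The gap is therefore a description and not a test. The median of all probe sets lay between -0.01 and 0.06 on every array. Of the 40 genes, 30 to 37 stood above the control mean on each extract array and 14 to 24 on each control array. This count was not made over all probe sets. The mean was higher with each of the 6 extracts for 24 genes (25.1% of all probe sets) and lower with each for 1 gene, SER3 (22.6%). For 9 genes all 14 extract arrays lay above all 4 control arrays (5.24%), and for SER3 all lay below (4.08%). Called higher with all 6 extracts were 4 genes, LYS20, LYS4, TRP3 and PRO1 (2.57%), and called lower with all 6 were 0 (1.39%).

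**Figure D2:**
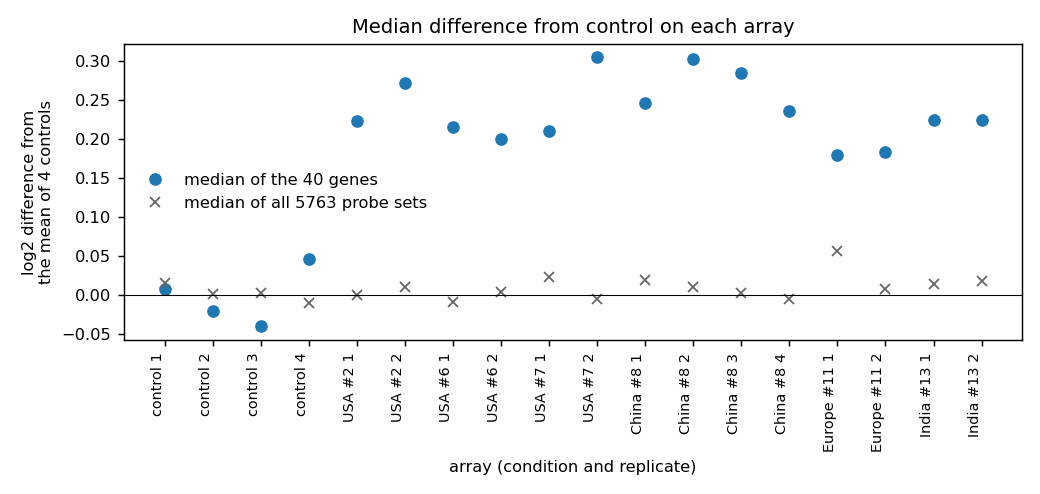
Median log2 difference from the mean of the 4 control arrays, for the 40 amino acid synthesis genes (circles) and for all 5763 probe sets (crosses), on each of the 18 arrays. The circles lie between -0.04 and 0.05 on control arrays and between 0.18 and 0.30 on extract arrays, while the crosses stay near 0.

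The contrast of the study, 12 extract arrays without USA #6 against 4 control arrays, called 4 of the 40 genes higher and 0 lower with the Bonferroni correction (2.29% and 1.49% of all probe sets). These were LYS4 0.75 (SE 0.09), LYS20 1.03 (SE 0.15), PRO1 0.72 (SE 0.09) and TRP3 0.54 (SE 0.07), with corrected p of 0.000617, 0.0135, 0.00171 and 0.00215. With the Benjamini-Hochberg adjustment, 22 were higher and 1 lower (15.4% and 14.5%). The model of this contrast took the 12 extract arrays as 1 group. Its spread therefore includes differences between extracts, and its p describes no single extract. Within batch 2, where 2 control arrays remain, none of the 4 passed the Bonferroni correction although the changes were 0.73, 0.85, 0.61 and 0.58, with corrected p of 0.226, 1, 0.221 and 0.383. LYS20 also lost its call in limma when control array 1, 2 or 3 was left out (Bonferroni-adjusted p = 0.162, 0.13 and 0.17). Without the high-18S arrays, LYS20 alone kept it, and LYS4, PRO1 and TRP3 had 0.0503, 0.0789 and 0.271.

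LYS20, a gene of the lysine pathway, had the largest rise among the 40 genes with each extract except Europe #11, where it was level with LYS4. LYS20 and LYS21 encode the homocitrate synthases that catalyze the first step, LYS4 homoaconitase and LYS12 homoisocitrate dehydrogenase in the steps that follow, LYS2 the aminoadipate reductase, LYS9 and LYS1 the saccharopine dehydrogenases that complete lysine, and LYS14 the pathway's activator. LYS20 and LYS4 rose with all 6 extracts, by 0.73 to 1.31 and 0.53 to 0.93. No gene of the 8 fell with any extract. China #8 raised 7 of the 8, all except LYS9, USA #7 raised 5, USA #2 raised 4, and USA #6, Europe #11 and India #13 raised 3 each. Of all probe sets, 19.7%, 20.4%, 10.5%, 4.08%, 12.3% and 14.1% were called higher in that order. The median change of the 8 was 0.52, 0.36, 0.34, 0.18, 0.30 and 0.30 in the same order.

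LYS20 measured 10.94, 11.06, 10.91 and 11.65 on the 4 control arrays and 12.26, 12.56, 12.47 and 12.51 on the 4 China #8 arrays. LYS20 was 12.09 and 12.22 (USA #2), 12.08 and 11.96 (USA #6), 11.99 and 12.24 (USA #7), 11.77 and 11.96 (Europe #11) and 11.93 and 12.12 (India #13). All 14 extract arrays lay above all 4 controls, of which control array 4 stood closest to them. The change was largest with China #8, 1.31 (SE 0.14, adjusted p = 9.04e-06), or 2.48-fold, and smallest with Europe #11, 0.73 (SE 0.17, adjusted p = 0.00959), or 1.65-fold. With China #8 it was 1.41 within batch 1 and 1.21 within batch 2.

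LYS21 read 10.46, 10.64, 10.54 and 11.09 on the 4 control arrays and 11.18, 11.21, 11.24 and 11.37 on the 4 China #8 arrays. LYS21 stood at 10.91 and 11.05 (USA #2), 10.80 and 10.59 (USA #6), 10.75 and 11.29 (USA #7), 10.88 and 11.14 (Europe #11) and 10.99 and 10.85 (India #13). The paralog overlapped with the controls for 5 extracts, with control array 4 high here too, and was called only with China #8, 0.57 (SE 0.14, adjusted p = 0.00451). Taken array by array, LYS20 minus LYS21 was larger on all 14 extract arrays than on all 4 control arrays, by 0.67 on average (exact permutation test over the 18 arrays, two-sided p = 0.000327, the smallest that 3060 assignments allow, and 0.00131 after adjustment for the 4 pairs of paralogs tested). Within batch 2 the difference was 0.65 (exact permutation p = 0.011, the smallest that 91 assignments allow, adjusted 0.044). Here and for the other pairs, the test took the arrays of all 6 extracts as 1 group. Over the 18 arrays it did not keep the batches apart. Its p therefore describes no single extract. The tests of paralog pairs were chosen after the data were seen, and the adjustment for 4 pairs does not cover that choice. How the signal of each probe set relates to the amount of its transcript was not measured, so the test speaks of signals.

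LYS4 measured 9.09, 8.95, 8.97 and 9.03 on the 4 control arrays and 9.93, 9.87, 10.10 and 9.83 on the 4 China #8 arrays. LYS4 gave 9.62 and 9.63 (USA #2), 9.59 and 9.49 (USA #6), 9.57 and 9.77 (USA #7), 9.73 and 9.75 (Europe #11) and 9.55 and 9.72 (India #13). The highest control stood at 9.09 and the lowest extract array at 9.49. The change with China #8 was 0.93 (SE 0.07, adjusted p = 7.57e-07), with Europe #11 0.73 (SE 0.09), with USA #7 0.66 (SE 0.09), with India #13 0.63 (SE 0.09), with USA #2 0.61 (SE 0.09) and with USA #6 0.53 (SE 0.09). LYS4 was also among the genes that differed between the extracts (F-test over the 6 extracts, adjusted p = 0.027), with China #8 at the top and USA #6 at the bottom.

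LYS2 gave 9.13, 8.78, 8.72 and 9.15 on the 4 control arrays and 9.50, 9.53, 9.82 and 9.76 on the 4 China #8 arrays. LYS2 measured 9.32 and 9.33 (USA #2), 9.59 and 9.36 (USA #6), 9.25 and 9.42 (USA #7), 9.36 and 9.51 (Europe #11) and 9.32 and 9.63 (India #13). LYS2, of which the strain has 1 intact copy, was above all controls on all 14 extract arrays, and was called with each extract except USA #2. Its changes were 0.71 (SE 0.12, adjusted p = 0.00031) with China #8, 0.53 (SE 0.14, adjusted p = 0.0139) with India #13, 0.53 (SE 0.14, adjusted p = 0.0378) with USA #6, 0.49 (SE 0.14, adjusted p = 0.0256) with Europe #11, 0.39 (SE 0.14, adjusted p = 0.0449) with USA #7 and 0.38 (SE 0.14, adjusted p = 0.0788) with USA #2. With batch as a block, the change with USA #7 was 0.32 and its adjusted p 0.0919, and with the replicate number as a block it was 0.32 with an adjusted p of 0.0815.

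The remaining lysine genes changed less. LYS9 rose with USA #7, 0.54 (SE 0.10, adjusted p = 0.0012), and with USA #2, 0.38 (SE 0.10, adjusted p = 0.0206), and measured 0.15 with China #8 and 0.02 with USA #6, and its difference between the extracts passed the F-test (adjusted p = 0.0304). LYS1, LYS12 and LYS14 rose with China #8 by 0.47, 0.25 and 0.23, and LYS14 also with USA #7 (0.34) and USA #2 (0.26). Within batch 2 of China #8, LYS12, LYS14 and LYS21 had adjusted p of 0.272, 0.289 and 0.0819, at changes of 0.14, 0.12 and 0.50, and LYS14 with USA #2 had 0.0586. LYS1 with China #8 had 0.0821 without the high-18S arrays, and LYS2 with USA #7 had 0.0561. With batch as a block, LYS9 was also called higher with Europe #11, 0.28 (adjusted p = 0.041), and India #13, 0.27 (adjusted p = 0.0406). Of the 25 calls of lysine genes, 14 held with any 1 array left out. Lost were LYS2 with USA #6 (without either array or control array 2 or 3, p up to 0.419), LYS2 with USA #7 (without either array or control array 2 or 3, p up to 0.263), LYS2 with Europe #11 (without either array or control array 2 or 3, p up to 0.193), LYS2 with India #13 (without array 2, p up to 0.151), LYS4 with USA #6 (without array 1, p up to 0.0645), LYS9 with USA #2 (without either array, p up to 0.186), LYS12 with China #8 (without control array 1, p up to 0.0501), LYS14 with USA #2 (without either array or control array 1 or 3, p up to 0.318), LYS14 with USA #7 (without array 2, p up to 0.0569), LYS20 with USA #6 (without either array, p up to 0.113) and LYS20 with Europe #11 (without either array, p up to 0.106), all with the adjusted p of limma. Outside the 8 genes, ACO1, the mitochondrial aconitase, fell with 4 extracts, most with USA #7, -0.47 (SE 0.09, adjusted p = 0.00199), and LYS5, which activates Lys2, fell with China #8 (-0.43) and Europe #11 (-0.40). MKS1, a regulator of the pathway, was called with none of the extracts.

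**Figure D3:**
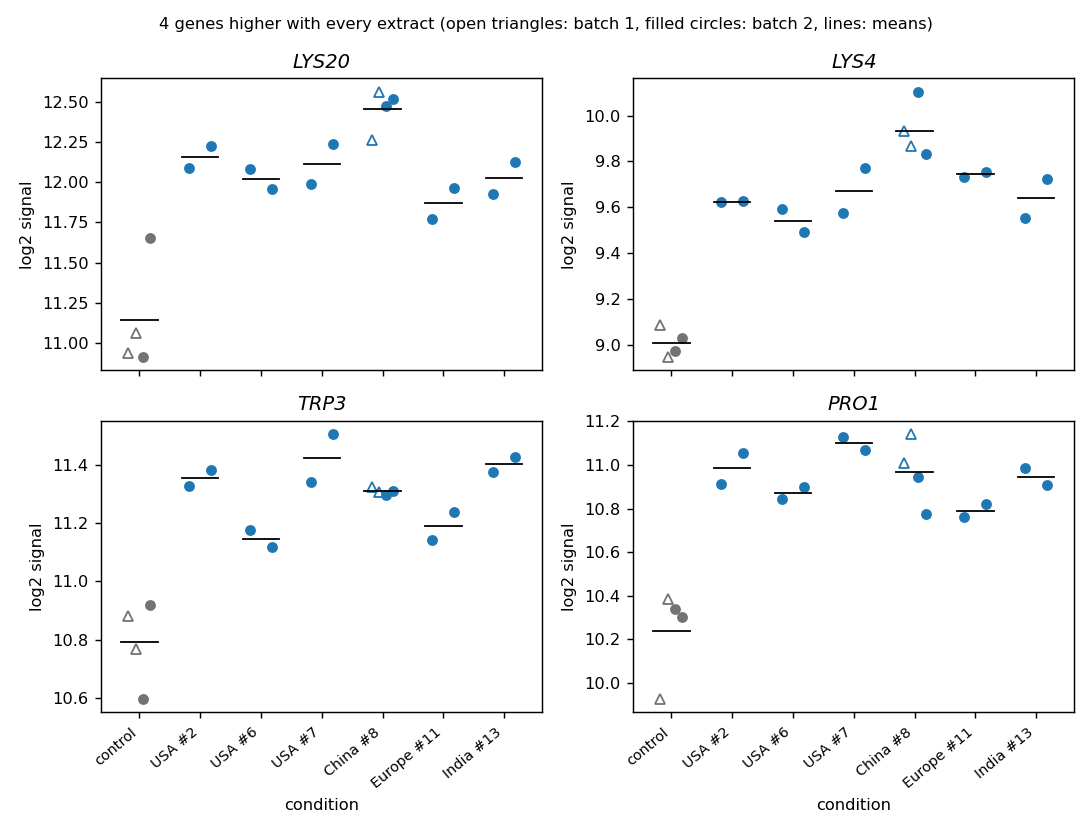
Log2 signal of LYS20, LYS4, TRP3 and PRO1 on each of the 18 arrays, by condition. Grey symbols are controls and blue symbols extracts, open triangles are batch 1 and filled circles batch 2, and lines are group means. For each of the 4 genes, all 14 extract arrays lie above all 4 control arrays.

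Of the histidine genes, HIS5 and HIS1 rose with 4 extracts each, HIS2 and HIS6 with 3 and HIS4 and HIS7 with 1, and HIS2, HIS4 and HIS5 differed among the extracts in the F-test. HIS1 encodes the ATP phosphoribosyltransferase of the first step, HIS4 an enzyme of several steps, HIS6 an isomerase, HIS7 the glutamine amidotransferase that closes the imidazole ring, HIS5 the aminotransferase and HIS2 the phosphatase of later steps. USA #2, USA #7 and China #8 raised 4 of the 6 each, India #13 raised 3, USA #6 raised 1 and Europe #11 raised 0, and no histidine gene fell. Of all probe sets, 10.5%, 20.4%, 19.7%, 14.1%, 4.08% and 12.3% were called higher in that order. With 6 genes, the counts of 1 and 0 were not read against these shares. Median changes were 0.38, 0.53, 0.37, 0.27, 0.38 and 0.16 in that order.

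HIS5 measured 10.72, 10.60, 10.83 and 10.78 on the 4 control arrays and 11.14, 11.30, 11.27 and 11.39 on the 4 China #8 arrays. HIS5 was 11.37 and 11.33 (USA #2), 11.20 and 11.03 (USA #6), 11.42 and 11.47 (USA #7), 10.71 and 10.87 (Europe #11) and 10.91 and 10.89 (India #13). The arrays of Europe #11 lay within and just above the range of the controls, and the other 12 extract arrays lay above it. HIS5 rose by 0.71 (SE 0.09, adjusted p = 6.54e-05) with USA #7, 0.62 (SE 0.09, adjusted p = 0.000474) with USA #2, 0.54 (SE 0.07, adjusted p = 5.51e-05) with China #8 and 0.38 (SE 0.09, adjusted p = 0.0187) with USA #6, and measured 0.06 (SE 0.09) with Europe #11 and 0.17 (SE 0.09) with India #13. The difference among the 6 extracts passed the F-test (adjusted p = 0.00279). Its China #8 change was 0.56 within batch 1 and 0.52 within batch 2.

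HIS2 read 10.88, 10.98, 10.59 and 10.70 on the 4 control arrays and 10.89, 10.99, 10.76 and 10.81 on the 4 China #8 arrays. HIS2 gave 11.23 and 11.16 (USA #2), 10.85 and 10.93 (USA #6), 11.40 and 11.48 (USA #7), 11.02 and 10.98 (Europe #11) and 11.33 and 11.14 (India #13). USA #7, USA #2 and India #13 lay above all controls, and China #8, USA #6 and Europe #11 overlapped with them. HIS2 rose by 0.65 (SE 0.10, adjusted p = 0.000423) with USA #7, 0.45 (SE 0.10, adjusted p = 0.00577) with India #13 and 0.41 (SE 0.10, adjusted p = 0.016) with USA #2, against 0.08 (SE 0.08) with China #8, and the F-test among the extracts gave an adjusted p of 0.00918. With Europe #11 it measured 0.21 (SE 0.10), not called, but was called higher with batch as a block, 0.32 (adjusted p = 0.00753), and within batch 2, 0.35 (adjusted p = 0.00814). The 2 control arrays of batch 2 were lower than those of batch 1 (difference of means -0.29). Without the high-18S arrays, the change with USA #2 was 0.27 and its adjusted p 0.0524.

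HIS4 was called only with China #8, 0.44 (SE 0.10, adjusted p = 0.00402), and measured 0.37 (SE 0.13) with USA #6 and -0.00 (SE 0.13) with USA #7 (F-test adjusted p = 0.0489). HIS1 rose with USA #7 (0.41), USA #2 (0.34), China #8 (0.25) and India #13 (0.23), and all 14 extract arrays of HIS1 were above the controls. HIS6 rose with USA #7 (0.64), India #13 (0.52) and USA #2 (0.49), and HIS7 with China #8 (0.45 (SE 0.12, adjusted p = 0.00864)). HIS7 lies next to ARO4 on the chromosome in the R64 annotation. With India #13, HIS1 had an adjusted p of 0.0525 in the model with a batch term and 0.0524 within batch 2, and with China #8, HIS7 had 0.0674 within batch 2 and HIS4 0.0536 without the high-18S arrays. HIS6 with USA #6 was called higher with batch as a block, 0.55 (adjusted p = 0.0269). Of the 16 calls of histidine genes, 8 held with any 1 array left out, and lost were HIS1 with USA #2 (without either array, p up to 0.115), HIS1 with India #13 (without either array or control array 1, p up to 0.165), HIS2 with USA #2 (without either array, p up to 0.117), HIS2 with India #13 (without array 1, p up to 0.0942), HIS5 with USA #6 (without either array, p up to 0.315), HIS6 with USA #2 (without either array or control array 1 or 4, p up to 0.279), HIS6 with USA #7 (without array 1, p up to 0.0679) and HIS6 with India #13 (without either array, p up to 0.15).

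Of other histidine genes, HIS3 encodes the dehydratase of the pathway and is among the genes of which this strain lacks an intact copy. Its probe set rose with USA #7 (0.75 (SE 0.14, adjusted p = 0.00131)), USA #2 (0.69), India #13 (0.58) and China #8 (0.57). The 2 factors that act on histidine and purine genes together moved apart: BAS1 rose with China #8 (1.02 (SE 0.17, adjusted p = 0.000287)), USA #7 (0.80) and India #13 (0.60), and PHO2 fell with all extracts except Europe #11, by -0.26 (India #13) to -0.46 (USA #6).

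In the aromatic pathway, TRP3 rose with all 6 extracts, ARO2 and TRP2 with 5 and ARO3 and TRP4 with 4, while ARO7 and TRP5 were called with none. ARO3 and ARO4 encode the entry enzymes that make the shikimate precursor DAHP, ARO1 the multifunctional enzyme that follows, ARO2 chorismate synthase, TRP2 and TRP3 anthranilate synthase, TRP4 the phosphoribosyltransferase after it, TRP5 tryptophan synthase, ARO7 chorismate mutase and ARO8 an aromatic aminotransferase. China #8 raised 7 of the 10, USA #2 and USA #7 raised 6 each, India #13 raised 5, Europe #11 raised 4 and USA #6 raised 1, and no gene of the 10 fell. Of all probe sets, 19.7%, 10.5%, 20.4%, 14.1%, 12.3% and 4.08% were called higher in that order. The 1 gene with USA #6, TRP3, was not read as a result of the pathway. Median changes were 0.26, 0.36, 0.33, 0.24, 0.23 and 0.24 in that order.

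TRP3 measured 10.88, 10.77, 10.60 and 10.92 on the 4 control arrays and 11.32, 11.31, 11.29 and 11.31 on the 4 China #8 arrays. TRP3 was 11.33 and 11.38 (USA #2), 11.18 and 11.12 (USA #6), 11.34 and 11.51 (USA #7), 11.14 and 11.24 (Europe #11) and 11.38 and 11.43 (India #13). All 14 extract arrays lay above the 4 controls, and the 4 China #8 arrays were nearly equal. TRP3 rose by 0.63 (SE 0.09, adjusted p = 0.000136) with USA #7, 0.61 (SE 0.09) with India #13, 0.56 (SE 0.09) with USA #2, 0.52 (SE 0.07, adjusted p = 6.46e-05) with China #8, 0.40 (SE 0.09) with Europe #11 and 0.35 (SE 0.09, adjusted p = 0.0224) with USA #6, or 1.28- to 1.55-fold.

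ARO2 gave 11.48, 11.34, 11.63 and 11.48 on the 4 control arrays and 12.09, 12.06, 12.26 and 12.10 on the 4 China #8 arrays. ARO2 stood at 11.78 and 11.96 (USA #2), 11.77 and 11.72 (USA #6), 11.80 and 11.82 (USA #7), 11.97 and 11.88 (Europe #11) and 11.83 and 11.91 (India #13). ARO2 was above the controls on every extract array, highest with China #8, where it rose by 0.65 (SE 0.07, adjusted p = 1.31e-05). The changes with Europe #11, India #13, USA #2 and USA #7 were 0.44, 0.39, 0.38 and 0.33, all called, and 0.26 (SE 0.09) with USA #6 was not (adjusted p = 0.103). The extracts differed by the F-test (adjusted p = 0.0291), and within each batch the change with China #8 was 0.67 and 0.62.

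ARO3 measured 12.78, 12.74, 12.63 and 12.79 on the 4 control arrays and 12.94, 13.05, 13.16 and 13.09 on the 4 China #8 arrays. ARO3 read 13.09 and 13.08 (USA #2), 12.98 and 12.98 (USA #6), 13.13 and 13.14 (USA #7), 12.92 and 12.95 (Europe #11) and 12.96 and 12.97 (India #13). ARO3, the isozyme that phenylalanine inhibits, was above all controls on every extract array and was called with USA #7 (0.40), USA #2 (0.35), China #8 (0.32) and India #13 (0.23). ARO4 measured 12.39, 12.43, 12.57 and 12.12 on the 4 control arrays and 12.63, 12.67, 12.58 and 12.55 on the 4 China #8 arrays. ARO4 read 12.75 and 12.74 (USA #2), 12.60 and 12.67 (USA #6), 12.77 and 12.77 (USA #7), 12.61 and 12.58 (Europe #11) and 12.71 and 12.56 (India #13). ARO4, the isozyme that tyrosine inhibits, overlapped with the controls on some China #8 and India #13 arrays and was called with USA #7 (0.39), USA #2 (0.37) and China #8 (0.23). Array by array, ARO3 minus ARO4 differed between extracts and controls by 0.01 (SD 0.0871 over 14 extract arrays and 0.253 over 4 controls, exact permutation test, two-sided p = 0.877, adjusted 0.877).

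TRP2 rose with all extracts except USA #6, from 0.33 with USA #7 to 0.63 (SE 0.10, adjusted p = 0.000196) with China #8. TRP4 rose with USA #2 (0.43), USA #7 (0.40), India #13 (0.39) and Europe #11 (0.35) and measured 0.08 (SE 0.09) with China #8. ARO1 and ARO8 rose only with China #8, by 0.25 and 0.27, and with USA #7 measured -0.21 (SE 0.11) and -0.20 (SE 0.09), and ARO8 differed among the extracts (F-test adjusted p = 0.0183). ARO7 and TRP5 were called with no extract, with changes of -0.17 to 0.18 and 0.03 to 0.17, and the 4 control values of ARO7 spanned 9.56 to 10.65. Of the 29 calls of aromatic genes, 10 held with any 1 array left out, and lost were ARO1 with China #8 (without array 1 or 3 or 4 or control array 2 or 3, p up to 0.135), ARO2 with USA #2 (without array 2, p up to 0.188), ARO2 with USA #7 (without either array, p up to 0.0674), ARO2 with Europe #11 (without array 1, p up to 0.0675), ARO2 with India #13 (without array 2, p up to 0.0539), ARO3 with USA #2 (without either array, p up to 0.0794), ARO3 with India #13 (without either array or control array 3, p up to 0.134), ARO4 with USA #2 (without either array, p up to 0.164) and ARO4 with China #8 (without array 1 or 2 or 3 or control array 4, p up to 0.0887) of the ARO genes. Of the TRP genes, lost were TRP2 with USA #2 (without either array or control array 3, p up to 0.224), TRP2 with USA #7 (without either array or control array 2, 3 or 4, p up to 0.209), TRP2 with Europe #11 (without either array, p up to 0.0899), TRP2 with India #13 (without array 2, p up to 0.138), TRP3 with USA #6 (without either array, p up to 0.253), TRP3 with Europe #11 (without array 2, p up to 0.0796), TRP4 with USA #2 (without either array, p up to 0.236), TRP4 with USA #7 (without array 2, p up to 0.226), TRP4 with Europe #11 (without either array or control array 3 or 4, p up to 0.198) and TRP4 with India #13 (without either array or control array 3, p up to 0.188). Without the high-18S arrays, the calls of TRP4 with USA #2, USA #7, Europe #11 and India #13 (adjusted p = 0.0695, 0.0689, 0.15 and 0.0957), of TRP2 with USA #2, USA #7 and India #13 (0.106, 0.17 and 0.0705) and of ARO1 and ARO8 with China #8 (0.279 and 0.165) were lost. Within batch 2, ARO4 with China #8 had an adjusted p of 0.183. Batch settings also added calls. With USA #6, TRP4 was higher in both, 0.35 (adjusted p = 0.0247) with the block and 0.35 (adjusted p = 0.0471) within batch 2, and TRP2 and ARO3 within batch 2, 0.39 (adjusted p = 0.0298) and 0.26 (adjusted p = 0.0345). ARO3 with Europe #11 was higher within batch 2, 0.22 (adjusted p = 0.0394), ARO4 with India #13 was higher with the block, 0.29 (adjusted p = 0.0362), and ARO1 with USA #7 was lower with the block, -0.29 (adjusted p = 0.0403).

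ARO9 and ARO10, which Aro80 activates for the breakdown of aromatic amino acids, fell with India #13 by -1.24 and -1.66 (SE 0.09, adjusted p = 1.13e-07) and with China #8 by -0.26 and -0.42, and rose with the other 4 extracts, most with USA #6, by 0.73 and 0.79 (SE 0.09, adjusted p = 6.08e-05). PHA2, prephenate dehydratase, rose with USA #7 (0.28) and China #8 (0.27), ARO80 itself fell with USA #7 (-0.33), and TYR1 was called with no extract.

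**Figure D4:**
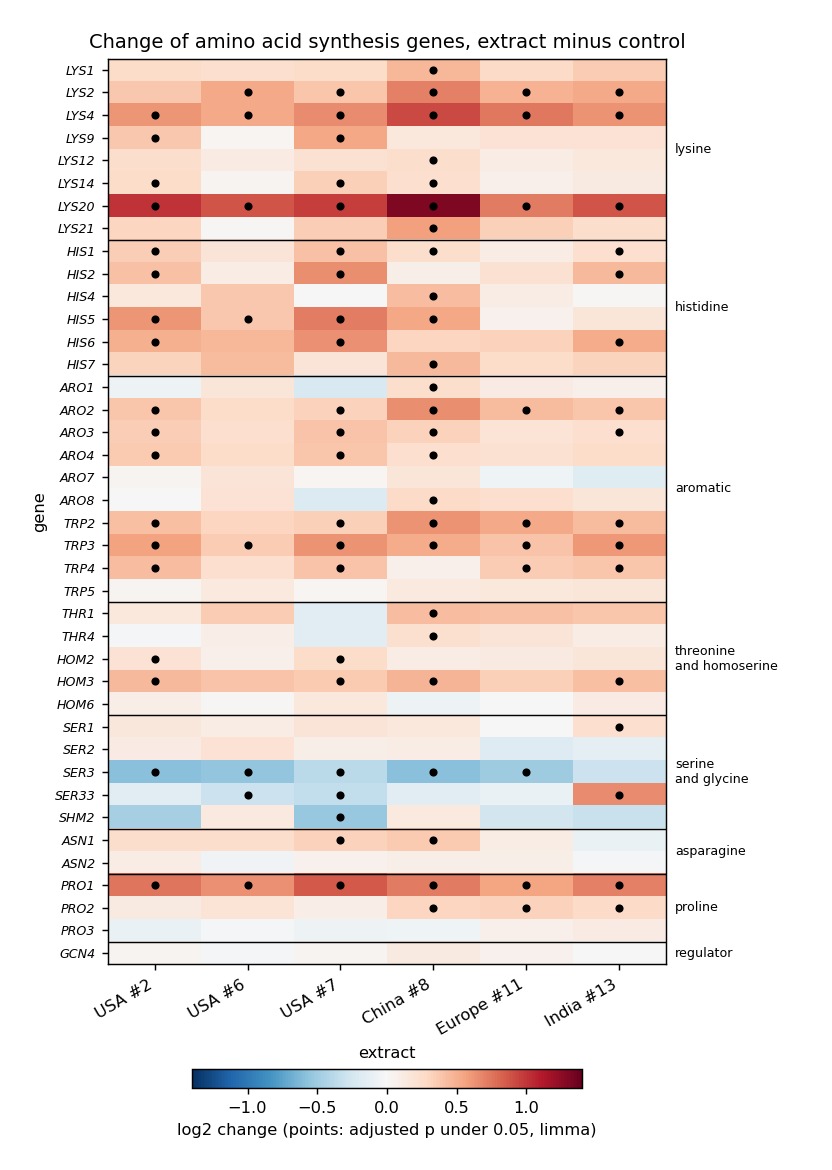
Log2 change, extract minus control, of the 40 genes (rows, by pathway) with the 6 extracts (columns). Red is higher and blue lower than control, and points mark an adjusted p of less than 0.05 in limma. LYS20 and PRO1 stand out across all columns, SER3 is lower in all of them, and SER33 changes sign between India #13 and the rest.

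In the branch from aspartate to threonine, HOM3, the aspartate kinase that catalyzes the first step and is inhibited by threonine, rose with 4 extracts. HOM2 encodes the semialdehyde dehydrogenase, HOM6 homoserine dehydrogenase, THR1 homoserine kinase and THR4 threonine synthase. China #8 raised 3 of the 5, USA #2 and USA #7 raised 2 each, India #13 raised 1, and USA #6 and Europe #11 raised 0, with none lower. Over all probe sets the shares called higher were 19.7%, 10.5%, 20.4%, 14.1%, 4.08% and 12.3% in that order, and the 1 of 5 with India #13 was near that share. Median changes were 0.22, 0.14, 0.15, 0.17, 0.09 and 0.18.

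HOM3 measured 11.92, 11.996, 11.65 and 12.21 on the 4 control arrays and 12.37, 12.51, 12.40 and 12.41 on the 4 China #8 arrays. HOM3 was 12.36 and 12.43 (USA #2), 12.37 and 12.32 (USA #6), 12.25 and 12.37 (USA #7), 12.22 and 12.33 (Europe #11) and 12.30 and 12.44 (India #13). All 14 extract arrays exceeded the 4 controls, though Europe #11 array 1 stood just above control array 4, the highest control. HOM3 rose by 0.48 (SE 0.09, adjusted p = 0.00122) with China #8, 0.45 (SE 0.12, adjusted p = 0.0172) with USA #2, 0.43 (SE 0.12, adjusted p = 0.015) with India #13 and 0.36 (SE 0.12, adjusted p = 0.0233) with USA #7. With USA #6 and Europe #11 it measured 0.40 (SE 0.12) and 0.33 (SE 0.12), with adjusted p of 0.0513 and 0.0541. THR1 stood at 11.71, 11.77, 11.56 and 11.64 on the 4 control arrays and 12.16, 12.17, 12.06 and 12.001 on the 4 China #8 arrays. THR1 was 11.84 and 11.79 (USA #2), 11.97 and 12.08 (USA #6), 11.08 and 11.94 (USA #7), 12.05 and 12.12 (Europe #11) and 12.11 and 12.01 (India #13). USA #7 array 1 was the lowest of the 18 arrays, while the other 13 extract arrays were all above the controls. THR1 was called only with China #8, 0.43 (SE 0.13, adjusted p = 0.0176), and measured 0.36 (SE 0.16) with USA #6, 0.41 (SE 0.16) with Europe #11, 0.39 (SE 0.16) with India #13 and -0.16 (SE 0.16) with USA #7. THR1 had an adjusted p of 0.125 within batch 2 of China #8 and 0.127 without the high-18S arrays, at changes of 0.43 and 0.42.

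THR4 rose with China #8 (0.22 (SE 0.08, adjusted p = 0.0377)) and was lowest on the same USA #7 array, at 12.47 against 12.79 to 13.12 on the other 17. HOM2 rose with USA #7 (0.25) and USA #2 (0.21), and HOM6 was called with no extract, with changes of -0.07 to 0.15. With batch as a block, HOM6 was called higher with USA #7, 0.21 (adjusted p = 0.0144), and India #13, 0.18 (adjusted p = 0.0391), and within batch 2 with USA #7, 0.19 (adjusted p = 0.0422). The block also called HOM2 with India #13, 0.21 (adjusted p = 0.0119), THR1 with Europe #11, 0.48 (adjusted p = 0.0394), and India #13, 0.46 (adjusted p = 0.0433), and HOM3 with USA #6, 0.42 (adjusted p = 0.0354), and Europe #11, 0.35 (adjusted p = 0.046), and batch 2 alone called HOM2 with India #13, 0.21 (adjusted p = 0.0304). Of the 8 calls in this branch, 2 held with any 1 array left out, those of HOM3 and THR1 with China #8, and lost were THR4 with China #8 (without any array or control array 1, 2 or 4, p up to 0.0833), HOM2 with USA #2 (without either array or control array 3 or 4, p up to 0.217), HOM2 with USA #7 (without array 1, p up to 0.0647), HOM3 with USA #2 (without either array, p up to 0.185), HOM3 with USA #7 (without either array, p up to 0.161) and HOM3 with India #13 (without either array, p up to 0.113). THR4 with China #8 had an adjusted p of 0.341 within batch 2 and 0.0879 without the high-18S arrays, HOM2 with USA #2 had 0.103 without them, and HOM3 with USA #7 had 0.0507 within batch 2.

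Among the serine genes, SER3 fell with 5 extracts and SER33 rose with India #13. SER3 and SER33 encode the isozymes of phosphoglycerate dehydrogenase, which take carbon from glycolysis into serine, SER1 and SER2 the aminotransferase and the phosphatase that follow, and SHM2 the cytosolic hydroxymethyltransferase that links serine and glycine. All 8 calls of lower genes among the 40 came from this group: SER3 with 5 extracts, SER33 with USA #6 and USA #7, and SHM2 with USA #7. Of all probe sets, 8.36% (USA #2), 2.88% (USA #6), 18.9% (USA #7), 19.9% (China #8), 9.89% (Europe #11) and 14.4% (India #13) were lower. The 1 of 5 with China #8 was near that share. With India #13, 14.1% of all probe sets were higher. The calls of higher genes were 2, SER33 and SER1 with India #13, and the median change was -0.15 with USA #2, 0.11 with USA #6, -0.35 with USA #7, 0.10 with China #8, -0.18 with Europe #11 and -0.13 with India #13.

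SER3 measured 12.53, 12.56, 12.45 and 12.26 on the 4 control arrays and 11.99, 11.91, 12.04 and 11.53 on the 4 China #8 arrays. SER3 was 11.91 and 11.82 (USA #2), 11.90 and 11.90 (USA #6), 12.08 and 12.07 (USA #7), 12.07 and 11.83 (Europe #11) and 12.25 and 12.04 (India #13). Every extract array lay below every control, the closest being India #13 array 1. SER3 fell with USA #2, -0.58 (SE 0.13, adjusted p = 0.00875), China #8, -0.58 (SE 0.11, adjusted p = 0.000718), USA #6, -0.55 (SE 0.13, adjusted p = 0.0207), Europe #11, -0.50 (SE 0.13, adjusted p = 0.016), and USA #7, -0.37 (SE 0.13, adjusted p = 0.0358), and measured -0.31 (SE 0.13, adjusted p = 0.0947) with India #13. Within China #8 the change was -0.59 in batch 1 and -0.57 in batch 2. Within batch 2 the calls with USA #6, USA #7 and Europe #11 were lost, with adjusted p of 0.0634, 0.151 and 0.057, and with batch as a block the call with USA #7 was lost (0.0826).

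SER33 read 10.74, 10.78, 10.65 and 10.67 on the 4 control arrays and 10.71, 10.51, 10.50 and 10.50 on the 4 China #8 arrays. SER33 stood at 10.55 and 10.58 (USA #2), 10.35 and 10.46 (USA #6), 10.32 and 10.40 (USA #7), 10.72 and 10.50 (Europe #11) and 11.39 and 11.35 (India #13). The 2 India #13 arrays were far above the other 16, which spanned 10.32 to 10.78. SER33 rose by 0.66 (SE 0.08, adjusted p = 8.52e-05) with India #13, or 1.58-fold, and fell by 0.35 with USA #7 (adjusted p = 0.00543) and by 0.30 with USA #6 (adjusted p = 0.0413). Its difference among the 6 extracts had the smallest adjusted p of the 40 genes in the F-test, 8.27e-05. The rise with India #13 held with any 1 array left out, and within batch 2 it was 0.72 with an adjusted p of 0.000156. The fall with USA #6 had adjusted p of 0.0657 within batch 2 and 0.0529 with the replicate number as a block.

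SER33 minus SER3, taken on each array, was 0.42 higher on extract than on control arrays (exact permutation test, two-sided p = 0.015, adjusted 0.0301), above all controls on 12 of 14 arrays. Its SD was 0.298 over the extract arrays and 0.0984 over the controls. The 2 India #13 arrays, on which SER33 was high, enter this mean. Within batch 2 the difference was 0.38 (exact permutation p = 0.132, adjusted 0.264). SHM2 fell with USA #7, -0.53 (SE 0.16, adjusted p = 0.0198), measured -0.47 (SE 0.16, adjusted p = 0.0581) with USA #2 and 0.14 (SE 0.13) with China #8, and differed among the extracts (F-test adjusted p = 0.0222). With USA #2, SHM2 was called lower with batch as a block, -0.58 (adjusted p = 0.0135), and within batch 2, -0.64 (adjusted p = 0.02), and with India #13 with the block, -0.43 (adjusted p = 0.0496). Its control array 4 stood at 13.15, above the other controls at 12.41 to 12.53. SER1 with India #13 rose by 0.23 (SE 0.08, adjusted p = 0.043), with an adjusted p of 0.075 in the model with a batch term and 0.193 within batch 2, and SER2 was called with no extract (-0.18 to 0.20) but was lower within batch 2 with Europe #11, -0.37 (adjusted p = 0.0232), and India #13, -0.32 (adjusted p = 0.036). Of the 10 calls of serine genes, 2 held with any 1 array left out, SER3 with China #8 and SER33 with India #13. Lost were SER1 with India #13 (without either array or control array 1, 2 or 3, p up to 0.232), SER3 with USA #2 (without array 2, p up to 0.129), SER3 with USA #6 (without either array or control array 2, p up to 0.193), SER3 with USA #7 (without either array or control array 1, 2 or 3, p up to 0.147), SER3 with Europe #11 (without array 2, p up to 0.176), SER33 with USA #6 (without either array or control array 1, 2 or 4, p up to 0.422), SER33 with USA #7 (without array 1, p up to 0.0639) and SHM2 with USA #7 (without array 1, p up to 0.212).

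**Figure D5:**
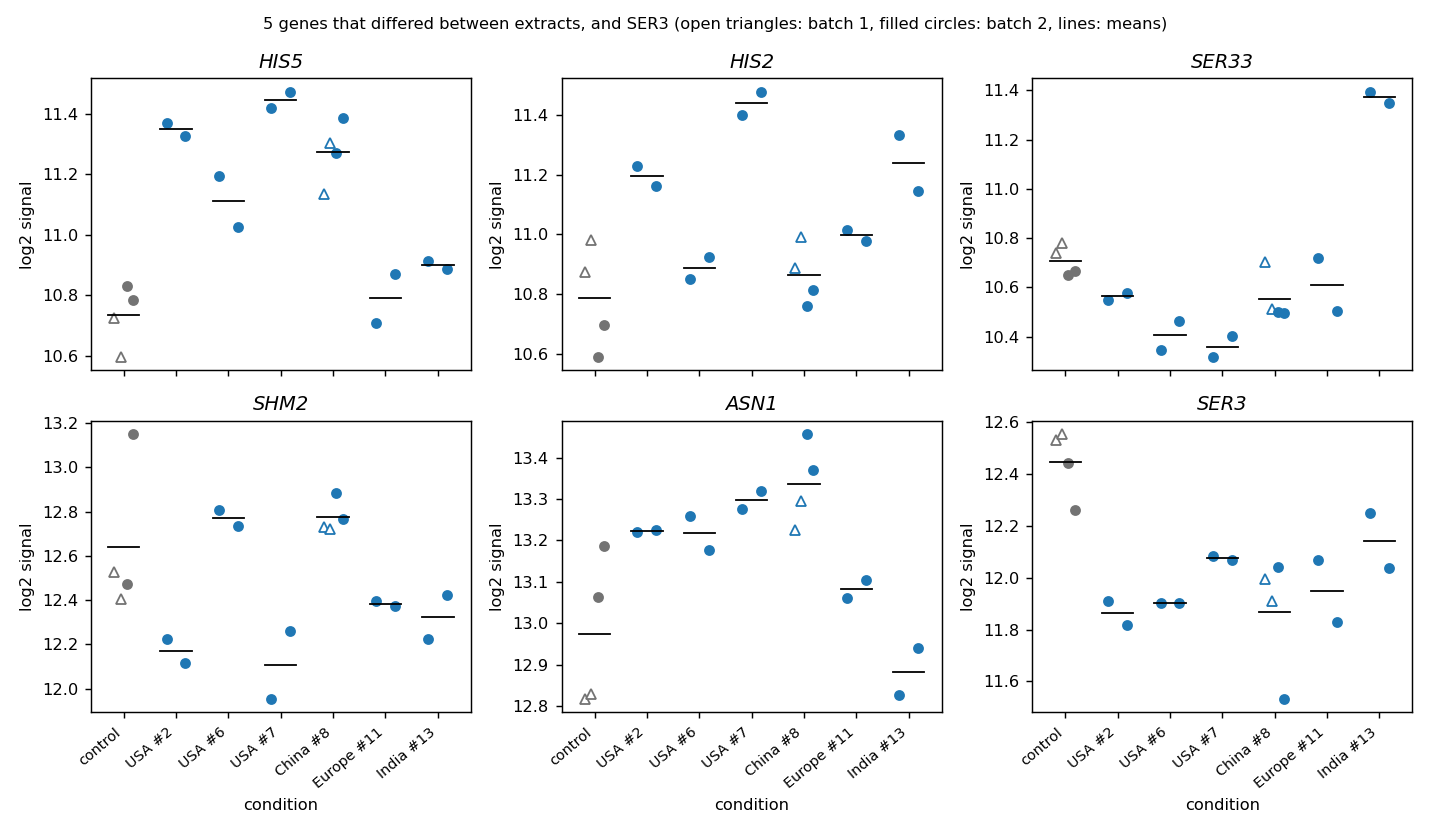
Log2 signal on each of the 18 arrays, by condition, of HIS5, HIS2, SER33, SHM2 and ASN1, which differed among the extracts in the F-test, and of SER3. Symbols are as in the plot of LYS20, LYS4, TRP3 and PRO1. SER33 is high only on the 2 India #13 arrays (11.35 and 11.40), HIS5 is near control with Europe #11, and SER3 is below all controls on all 14 extract arrays.

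Genes next to serine in metabolism moved as well. Of 11 further genes of serine, glycine and threonine, USA #7 raised 6, China #8, Europe #11 and India #13 raised 5 each, USA #2 raised 4 and USA #6 raised 2, and AGX1 with China #8 was the only one lower (-0.78). The shares of all probe sets called higher were 20.4%, 19.7%, 12.3%, 14.1%, 10.5% and 4.08% in that order, and 19.9% were lower with China #8. GLY1, threonine aldolase, which makes glycine, rose with all 6 extracts, from 0.43 with USA #7 to 0.90 (SE 0.08, adjusted p = 2.2e-06) with China #8. CHA1, which breaks down serine and threonine and is induced by them through Cha4, rose with 5 extracts, by 0.67 (Europe #11) to 1.03 (USA #7), and measured 0.25 (SE 0.14, adjusted p = 0.174) with India #13.

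Asparagine synthetase has the genes ASN1 and ASN2, and only the first was called. ASN1 measured 12.82, 12.83, 13.06 and 13.19 on the 4 control arrays and 13.22, 13.29, 13.46 and 13.37 on the 4 China #8 arrays. ASN1 was 13.22 and 13.22 (USA #2), 13.26 and 13.18 (USA #6), 13.28 and 13.32 (USA #7), 13.06 and 13.10 (Europe #11) and 12.83 and 12.94 (India #13). The controls of batch 1 were lower than those of batch 2, and USA #6, Europe #11 and India #13 overlapped with the controls. ASN1 rose with China #8, 0.36 (SE 0.08, adjusted p = 0.0032), and USA #7, 0.32 (SE 0.10, adjusted p = 0.0218), and measured -0.09 (SE 0.10) with India #13, and the extracts differed (F-test adjusted p = 0.0389). ASN1 with India #13 was called lower with batch as a block, -0.20 (adjusted p = 0.0379), and within batch 2, -0.24 (adjusted p = 0.0298). Within batch 2 the change with USA #7 was 0.17 with an adjusted p of 0.0904. The call with USA #7 was also lost without either of its arrays (adjusted p up to 0.122). ASN2 read 12.75, 12.67, 12.67 and 12.75 on the 4 control arrays and 12.79, 12.75, 12.84 and 12.78 on the 4 China #8 arrays. ASN2 gave 12.80 and 12.83 (USA #2), 12.70 and 12.62 (USA #6), 12.76 and 12.79 (USA #7), 12.78 and 12.80 (Europe #11) and 12.68 and 12.70 (India #13). ASN2 stayed within 12.62 to 12.84 on all arrays, with changes of -0.05 to 0.10. The difference ASN1 minus ASN2 was 0.17 higher on extract arrays (exact permutation test, two-sided p = 0.0611, adjusted 0.0815) and 0.01 within batch 2. ASP1, the asparaginase that degrades asparagine, rose with all extracts except USA #6, by 0.43 to 0.68.

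Of the proline genes, PRO1 rose with all 6 extracts. PRO1 encodes the glutamyl kinase that commits glutamate to proline, PRO2 the reductase after it and PRO3 the last enzyme. PRO1 measured 9.92, 10.39, 10.34 and 10.30 on the 4 control arrays and 11.01, 11.14, 10.94 and 10.78 on the 4 China #8 arrays. PRO1 was 10.91 and 11.06 (USA #2), 10.85 and 10.90 (USA #6), 11.13 and 11.07 (USA #7), 10.76 and 10.82 (Europe #11) and 10.98 and 10.91 (India #13). All 14 extract arrays lay above the 4 controls, of which control array 1 was the lowest. PRO1 rose by 0.86 (SE 0.12, adjusted p = 0.000166) with USA #7, 0.75 (SE 0.12) with USA #2, 0.73 (SE 0.10, adjusted p = 6.32e-05) with China #8, 0.71 (SE 0.12) with India #13, 0.63 (SE 0.12) with USA #6 and 0.55 (SE 0.12, adjusted p = 0.0066) with Europe #11, or 1.47- to 1.82-fold. The China #8 change was 0.92 within batch 1 and 0.54 within batch 2. PRO2 rose with Europe #11 (0.32), China #8 (0.30) and India #13 (0.27), and PRO3 was called with no extract (-0.10 to 0.12), though with India #13 it was called higher with batch as a block, 0.17 (adjusted p = 0.0489). Of the 9 calls, 5 held with any 1 array left out, and lost were PRO1 with USA #6 (without either array, p up to 0.0865), PRO1 with Europe #11 (without either array, p up to 0.0664), PRO2 with Europe #11 (without either array, p up to 0.147) and PRO2 with India #13 (without either array or control array 2, 3 or 4, p up to 0.223). Without the high-18S arrays, PRO2 had adjusted p of 0.0797 with Europe #11 and 0.137 with India #13. PUT2, of proline breakdown, fell with USA #7 (-0.34) and China #8 (-0.28), while PUT1 and PUT3 were called with no extract.

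GCN4 measured 13.46, 13.45, 13.58 and 13.61 on the 4 control arrays and 13.69, 13.60, 13.65 and 13.66 on the 4 China #8 arrays. GCN4 was 13.56 and 13.57 (USA #2), 13.52 and 13.51 (USA #6), 13.52 and 13.60 (USA #7), 13.60 and 13.58 (Europe #11) and 13.51 and 13.55 (India #13). Extract and control arrays of GCN4 overlapped with each extract, although the 2 lower controls were those of batch 1. Its changes were 0.04 with USA #2 (95% confidence interval -0.10 to 0.18), -0.01 with USA #6 (95% confidence interval -0.15 to 0.13), 0.03 with USA #7 (95% confidence interval -0.11 to 0.18), 0.12 with China #8 (95% confidence interval 0.01 to 0.24), 0.07 with Europe #11 (95% confidence interval -0.08 to 0.21) and 0.00 with India #13 (-0.14 to 0.15). No change passed the test. The largest, with China #8, had an adjusted p of 0.0867. Of 11 genes for the control of GCN4 translation, China #8 raised 9, India #13 raised 4 and lowered 1, USA #2 and USA #7 raised 3 and lowered 1 each, Europe #11 raised 3 and USA #6 raised 0. Over all probe sets, 19.7% were higher with China #8, 14.1% with India #13, 10.5% with USA #2, 20.4% with USA #7 and 12.3% with Europe #11, and the 3 of 11 with USA #7 was near that share. YIH1, an inhibitor of Gcn2 activation, rose most, by 1.06 (SE 0.21, adjusted p = 0.00163) with USA #7, 0.80 with India #13, 0.78 with USA #2 and 0.45 with China #8. GCN2, the kinase, was the gene that fell, by -0.50 with USA #7, -0.41 with India #13 and -0.37 with USA #2.

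Other pathways under general amino acid control rose beside these 40 genes. Of 8 arginine genes measured, 7 were higher with USA #2, USA #7 and India #13, 6 with China #8, 5 with USA #6 and 4 with Europe #11, with median changes of 0.79, 0.86, 0.81, 0.67, 0.59 and 0.35. ARG3, ornithine carbamoyltransferase, rose by 2.25 (SE 0.26, adjusted p = 3.38e-05) with India #13 and by 0.93 to 1.46 with the others. CPA1, a subunit of carbamoyl phosphate synthetase, rose by 1.20 with China #8, and ORT1, the mitochondrial ornithine transporter, by 1.10 with USA #7. Of 10 branched-chain genes, 9 were higher with India #13, 7 with China #8, 6 with Europe #11, 5 with USA #7, 4 with USA #2 and 2 with USA #6, with median changes of 0.59, 0.46, 0.41, 0.29, 0.26 and 0.33. BAT2, a branched-chain aminotransferase, rose by 1.33 (SE 0.12, adjusted p = 6.86e-06) with India #13, LEU1 by 1.18, and LEU9 with all 6 extracts, by 0.70 to 1.10. No gene of either list was lower with any extract. Over all probe sets, the shares higher and lower were 10.5% and 8.36% (USA #2), 4.08% and 2.88% (USA #6) and 20.4% and 18.9% (USA #7). They were 19.7% and 19.9% (China #8), 12.3% and 9.89% (Europe #11) and 14.1% and 14.4% (India #13). ILV1 is counted among the 10 branched-chain genes and also among the 11 further genes of serine, glycine and threonine.

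Differences between extracts were tested directly. Among the 6 extracts, 10 of the 40 genes differed by the F-test (25.0%), where 29.4% of all probe sets did. The 10 were LYS4, LYS9, HIS2, HIS4, HIS5, ARO2, ARO8, SER33, SHM2 and ASN1. The count was 15 in the model with a batch term, 14 within batch 2, 7 without the high-18S arrays and 16 with the replicate number as a block. It fell to 4 without USA #6 array 1, USA #7 array 1 or China #8 array 3, to 5 without USA #6 array 2 and to 6 without either USA #2 array. The share of all probe sets was not counted in these settings.

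USA #2 and USA #7 together, against China #8 and Europe #11 together, differed for 0 of the 40 genes in either direction with the Bonferroni correction in limma (0.191% of all probe sets higher and 0.416% lower). At an unadjusted p of less than 0.05 in limma there were 20 of the 40, where 2565 of all 5763 probe sets had such a p, a similar share. With the Benjamini-Hochberg adjustment 4 were higher with the USA extracts and 8 lower (17.2% and 17.0% of all probe sets). Higher with USA were HIS2 0.41 (SE 0.09), LYS9 0.29 (SE 0.08), HIS1 0.17 (SE 0.06) and HOM6 0.16 (SE 0.06). Lower with USA were SHM2 -0.51 (SE 0.14), THR1 -0.43 (SE 0.13), ARO8 -0.36 (SE 0.07), ARO1 -0.35 (SE 0.09), THR4 -0.29 (SE 0.07), ARO2 -0.22 (SE 0.08), LYS4 -0.22 (SE 0.07) and PRO2 -0.20 (SE 0.06). THR1 and THR4 are the genes whose USA #7 arrays lay apart. India #13 and USA #6 are not in this contrast. Its model took USA #2 and USA #7 as 1 group and China #8 and Europe #11 as another. The spread therefore includes differences between the extracts joined in a group.

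China #8 was the only extract measured on both dates, and its effect on the 40 genes was compared between them. Within batch 1, 36 of the 40 genes had a higher mean with China #8 than in control, with a median change of 0.31, and within batch 2, 34 of 40 had, with a median of 0.23. These counts by batch were not made over all probe sets. The interaction of condition and batch in limma passed for 0 of the 40 genes after adjustment, and for 0 at an unadjusted p of less than 0.05, where 623 of all 5763 probe sets had such a p and 0 passed after adjustment. With 2 arrays of each condition per batch, this does not show that the dates agreed. The largest differences were those of ARO7, 0.50 in batch 1 and -0.17 in batch 2, and SER2, 0.39 and -0.19. The SE of these differences was 0.41 and 0.25. Fitted within batch 1 alone, where 2 arrays stand against 2, China #8 raised 10 genes and lowered 1. The share of all probe sets was not counted in that fit. That fit and the interaction took the arrays as unpaired, although same-numbered control and China #8 arrays of batch 1 had correlated deviations (0.748). The control means of the 40 genes differed between the batches by a median of -0.01 (batch 2 minus batch 1), with 19 of 40 higher in batch 2.

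Across the means of the 7 conditions, the 40 genes were alike in part. Over the 780 pairs of genes, the median Pearson correlation was 0.362, with 297 pairs over 0.5 and 231 pairs under 0. These 7 points share the control mean and the arrays, and no test was made on them.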

How the data were processed

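RNA of 18 yeast cultures was hybridised to 1 array each. The authors deposited log2 values per probe set, after robust multi-array averaging (RMA), which corrects background, equalises the arrays by quantiles and summarises probes, so a shift common to most genes would not be seen. The software versions used for this are not stated in the labels or methods read here. Of 5900 probe sets, 137 Affymetrix controls were left out. The platform table paired 5498 probe sets with 1 gene, 265 with none and 0 with several, and 12 names were updated through gene identifiers. No sequences were used here. Some further genes of these pathways are not reported here.

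A linear model with 7 group means and moderated variances was fitted over all 18 arrays with limma 3.58.1 in R 4.3.3. Contrasts were each extract against control, 12 arrays of 5 extracts against control, USA #2 and USA #7 against China #8 and Europe #11 (both with Bonferroni as in the methods, and Benjamini-Hochberg), and an F-test among the 6 extracts. The model was tested on simulated data. The 40 genes and the further gene lists were chosen with earlier results of these data known. Values on every array were given for GCN4, LYS2, the 2 genes of each pathway (1 for asparagine and proline) with the smallest p of an F-test over the 6 contrasts with control, and 4 paralog pairs. All 40 genes were named, and from further lists up to 3 genes with the largest called changes, besides MKS1, PHA2, TYR1, PUT1 and PUT3, which were chosen after their values were seen. Alternatives were each array left out, batch as a block, batch 2 only, no high-18S arrays, the replicate number as a block, no arrays but the pair compared, equal array medians, dim probe sets left out (log2 under 6), controls kept, trended robust variances and the other p adjustment. The exact permutation tests of paralog pairs, the fit of China #8 within batch 1 and the alternatives to the interaction were chosen after seeing the data. Sequencing depth does not apply, and the number of arrays limits the precision. The titles give 2 dates for control and China #8 and 1 for every other extract. Whether cultures of 1 group and date were grown on separate days is not given. P-values measure the spread between these cultures. The main fit had no batch term, so for control and China #8 this spread includes differences between the dates.

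Over 22 pairs of groups, the deviations of same-numbered arrays had correlations of -0.376 to 0.748. Within batch 2 they ran from -0.376 to 0.572, with both signs. In batch 1, control with China #8 was the only pair, and it had the highest, 0.748. The fit within batch 1 and the interaction of condition and batch took these arrays as unpaired. Their standard errors and p therefore make no allowance for a pairing in batch 1.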

Additional observations from a re-analysis of the deposited data

Results flagged for a closer look

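In 80 groups of 4 arrays (the controls and China #8, for each of the 40 genes), 3 held an array far from the other 3, by Dixon's test of the gap to the nearest value. Chance flags about 1 in 20 groups. ARO2 on China #8 array 3 measured 12.263, where the other China #8 arrays stood at 12.063 to 12.097. SER33 on China #8 array 1 measured 10.705 against 10.496 to 10.511. SHM2 on control array 4 measured 13.152 against 12.406 to 12.527, and this array enters every comparison of SHM2 with control. Control array 4 and China #8 array 3 are of the 4 arrays with a high signal of the 3′ end of 18S ribosomal RNA, whose part in these values was not tested.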

How the results depend on the processing

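With 1 array left out, the number of the 40 genes called (higher or lower) ranged from 5 to 19 for USA #2 (18 with all arrays), 0 to 10 for USA #6 (8), 13 to 23 for USA #7 (22), 22 to 26 for China #8 (25), 2 to 12 for Europe #11 (10), 6 to 17 for India #13 (16), 3 to 5 for all extracts (4) and 4 to 11 for the F-test (10). With variances from the arrays of the pair compared alone, the counts were 4, 1 and 11 for USA #2, USA #6 and USA #7, 1 for Europe #11 and 5 for India #13. With Bonferroni, they were 2, 0, 4, 6, 1 and 3 for the 6 extracts in the order USA #2, USA #6, USA #7, China #8, Europe #11 and India #13, and 1 for the F-test, while with Benjamini-Hochberg they were 23 for all extracts and 12 for USA against China and Europe. Without the high-18S arrays, USA #6 had 13 and all extracts 1. Within batch 2, all extracts had 0, and within batch 1 China #8 had 11. The median of the 40 genes for USA against China and Europe was -0.04, and 0.00046 within batch 2. With the replicate number as a block (with batch), the counts were 19, 10, 23, 26, 15 and 23 for the 6 extracts and 16 for the F-test. It ended the calls of LYS2 with USA #7, SER1 with India #13 and SER33 with USA #6. Apart from the counts with Benjamini-Hochberg, shares of all probe sets were not counted under these alternatives. Over 22 pairs of groups, same-numbered arrays had correlated deviations over 0.1 in 8 (-0.376 to 0.748). The highest was that of the only pair in batch 1, control with China #8. The main fit did not take the numbers to pair the arrays. Of 5768 results of single genes under alternatives, 5262 stayed called or stayed uncalled, 355 lost the call and 151 gained it. None reversed direction while called in either fit. Changes of direction without a call in either fit are counted among the 5262. The cause of these changes was not tested.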
